A study of Homo sapiens with 6 samples.

Results

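The miR-7 family of the human genome was followed through 3 rows of a table of miRNA read counts that were chosen by name. These rows were hsa-miR-7-5p (the guide strand of miR-7), hsa-miR-7-1-3p (the passenger strand of the MIR7-1 precursor) and hsa-miR-3529-3p, annotated on the strand opposite to MIR7-2. They were 3 of the 1582 rows of the table, which held 5 arms of the MIR7 and MIR3529 hairpins in all. The libraries were small RNA libraries of MDA-MB-231, a human breast cancer cell line without estrogen receptor, progesterone receptor or HER2 amplification that serves as a model of triple-negative breast cancer. The 3 control libraries came from non-transfected cells, and the 3 RARαS77A libraries came from cells that received RARαS77A by lentivirus, as the deposited design text has it. RARαS77A is a retinoic acid receptor α whose serine 77 is replaced by alanine, so that this site cannot be phosphorylated. Because the control cells received no vector and no library had added wild-type RARα, the delivery, the added receptor and its mutation cannot be told apart. The sources used here do not give the cultures behind the replicates, so p-values measure the spread between these libraries, which may be technical.

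miR-7 is a highly conserved miRNA that is best known from neurons and from endocrine cells of the pancreas. In cancer cells its guide strand represses transcripts of growth factor signalling, among them EGFR, IRS2 and PAK1. The circular RNA CDR1as carries many sites that bind miR-7, and miR-671-5p directs the cleavage of CDR1as. Each miRNA hairpin can give a 5p arm and a 3p arm, of which the guide is loaded into the silencing complex and the passenger is mostly degraded.

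The mature sequences are given first because they decide which rows of the table can be told apart and which locus a count can be traced to. They are RefSeq sequences on GRCh38.p14, written 5′ to 3′, with the seed (bases 2 to 8, which pair with target transcripts) in capitals.
miR-7-5p: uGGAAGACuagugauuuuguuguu
miR-3529-3p: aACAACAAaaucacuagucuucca
miR-7-1-3p: cAACAAAUcacagucugccaua
miR-7-2-3p: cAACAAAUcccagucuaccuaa
miR-3529-5p: aGGUAGACugggauuuguuguu

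miR-3529-3p was the exact reverse complement of miR-7-5p over all 24 bases, so that a read of either sequence is a read of the other with the strand turned. miR-7-2-3p and miR-3529-5p were reverse complements over 20 of their 22 bases. The passenger arms of MIR7-1 and MIR7-2 shared the seed AACAAAU and 18 of 22 bases. They differed by A10C, G17A, A20U and U21A, where the base of miR-7-1-3p comes first and positions are counted from 1 at the 5′ end. No other row with a known mature sequence had the seed of miR-7-5p or that of miR-3529-3p, and the seed of miR-3529-5p was also that of miR-379-5p, which had 2 to 14 counts a library.

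The guide strand of miR-7 is made by 3 precursors with 1 mature sequence. MIR7-1 lies at chr9:83969748-83969857 on the minus strand in GRCh38 (GENCODE 29). Its 110 bases lie inside HNRNPK, which encodes an RNA-binding protein, on the same strand, and overlap an exon in 1 of the 11 annotated transcripts of that gene. MIR7-2 lies at chr15:88611825-88611934 on the plus strand, and MIR3529 at chr15:88611847-88611924 on the minus strand, so that all 78 bases of MIR3529 are covered by MIR7-2. MIR7-3 lies at chr19:4770670-4770779 on the plus strand, within an intron of MIR7-3HG, a lincRNA gene. The hairpins of MIR7-2 and MIR7-3 are shown, with the same guide in different surroundings. Those of MIR7-1 and MIR3529 were missing from the sequence source used here. Capitals mark the arms listed in the table.
MIR7-2: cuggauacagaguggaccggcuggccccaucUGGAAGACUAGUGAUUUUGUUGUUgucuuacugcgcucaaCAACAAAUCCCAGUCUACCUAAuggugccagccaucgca
MIR7-3: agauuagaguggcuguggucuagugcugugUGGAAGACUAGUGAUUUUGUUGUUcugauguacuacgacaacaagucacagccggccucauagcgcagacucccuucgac

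In MIR7-2 the guide occupied bases 32 to 55 and miR-7-2-3p bases 72 to 93 of 110. Read on the other strand, bases 32 to 55 are miR-3529-3p and bases 70 to 91 are miR-3529-5p. In MIR7-3 the guide occupied bases 31 to 54, and the table listed no 3p arm of this precursor. A count of miR-7-5p can therefore come from any of the 3 precursors. A count of miR-7-1-3p names MIR7-1, and a count of miR-7-2-3p names MIR7-2 where strand is kept. Without strand, counts of miR-7-5p and miR-7-2-3p could also come from MIR3529.

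Totals lay between 9019266 and 11338580 counts per library. Replicates of a group differed far beyond sampling noise (chi-square per degree of freedom of 60.3 to 265), so that none was a repeat deposit. TMM factors, which correct for a few abundant miRNAs taking a changing share of the reads, were 1.15 to 1.30 in control and 0.811 to 0.830 in RARαS77A. This correction raised RARαS77A relative to control, and the median log2 fold change of all 506 miRNAs tested was 0.06 with TMM and -0.51 with total counts alone. Control replicate 3 stood apart from the other controls in one respect. The 13 rows of miRNAs typical of pluripotent stem cells (the miR-302 and miR-371 clusters) summed to 0.160 and 0.0680 TMM-normalized CPM in control replicates 1 and 2, but to 447 in control replicate 3 and to 444 to 461 in RARαS77A. Results for the miR-7 rows are therefore also given against control replicate 3 alone, where they rest on a single control library and no test of them is quoted. The RARA transcript is not measured in small RNA libraries, so the label of the RARαS77A libraries was not checked.

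miR-7-5p was higher in RARαS77A cells. It had 61962, 55240 and 53721 counts in the control libraries and 85512, 92056 and 80402 counts in the RARαS77A libraries. After TMM scaling these were 4970, 3756 and 4909 CPM in control and 10878, 10963 and 9681 CPM in RARαS77A. Every RARαS77A library was thus far above every control library, and control replicate 3, at 4909 CPM, lay with the other controls. The mean rose from 4545 ± 684 to 10507 ± 717 CPM (SD, n = 3 each). This was a 2.31-fold rise, or a log2 fold change of 1.21 (SE 0.13, 95% interval 0.90 to 1.52, edgeR quasi-likelihood test with Benjamini-Hochberg adjustment, adjusted p = 0.000365). In these libraries edgeR called 23.3% of all 506 miRNAs higher (118) and 21.1% lower (107), and groups of TMM-normalized CPM did not overlap for 58.1% of them. A call for miR-7-5p was thus shared with many other miRNAs. Its log2 fold change was 56th from the top of the 506, and 90% of all miRNAs tested lay below 1.25. A two-sided exact permutation test of the 6 libraries gave p = 0.1, the smallest p that 3 against 3 libraries allow.

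As a share of all counts, with no TMM correction, miR-7-5p took 0.552% ± 0.0573 in control and 0.861% ± 0.0504 in RARαS77A (SD, n = 3 each). The highest control share was 0.596% (95% Wilson interval 0.591 to 0.601) and the lowest RARαS77A share 0.803% (0.797 to 0.809). The groups did not overlap on this scale either, and the rise was 1.56-fold. With total counts in place of TMM, edgeR gave a log2 fold change of 0.64 (adjusted p = 0.00222), and it then called 51 miRNAs higher and 213 lower. Relative to the median of all miRNAs tested, miR-7-5p was 1.15 higher on the log2 scale under either scaling. A change of scaling shifts all miRNAs nearly alike, so this match was fixed in advance and is only a description. Against control replicate 3 alone the log2 fold change was 1.13. In bulk libraries, more miR-7 per cell and more cells that express it cannot be told apart.

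miR-7-5p was among the abundant miRNAs of these cells. Among the rows of the table it ranked 22nd, 24th and 22nd in the control libraries and 13th, 15th and 16th in the RARαS77A libraries. Some complementary rows, such as miR-103a-3p and miR-103b, may hold the same reads, so a rank among separate miRNAs may differ. By the mean share of counts over the 6 libraries miR-7-5p was the 20th of all rows. The next rows above it were miR-103a-3p, miR-29a-3p and miR-103b, and those below were miR-3529-3p, miR-92a-3p and miR-125b-5p. This order is not fixed, because these neighbours, other than miR-3529-3p, moved the other way in share. miR-29a-3p, for instance, took 1.12% ± 0.0655 in control and 0.528% ± 0.0662 in RARαS77A, and miR-92a-3p 0.706% ± 0.0187 and 0.310% ± 0.0470. In control, miR-7-5p at 0.552% lay below both of them, and in RARαS77A, at 0.861%, above both, with no overlap between libraries. miR-125b-5p, at 0.694% ± 0.106 in control, lay above miR-7-5p by less than the sum of their SDs there.

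miR-3529-3p followed miR-7-5p in every library. Its counts were 60306, 54234 and 52346 in control and 83871, 90280 and 78851 in RARαS77A. The mean was 4436 ± 649 CPM in control and 10305 ± 704 CPM in RARαS77A (SD, n = 3 each). In edgeR the log2 fold change was 1.22 (SE 0.13, adjusted p = 0.000334). The row of miR-3529-3p held between 97.3% and 98.2% of the count of miR-7-5p, with a mean of 97.9% ± 0.374 (SD, n = 6). miR-7-5p was ahead by 1006 to 1776 counts a library. This was 3.04 to 4.74 times the SD of counting error for 2 independent rows. As both rows may hold the same reads, that SD may not apply, and no excess of miR-7-5p is read from it. Group means of the ratio were 97.6% ± 0.462 in control and 98.1% ± 0.00585 in RARαS77A (SD, n = 3 each). Over the 6 libraries the log2 CPM of both rows correlated with Pearson's r = 0.999974, a description of 2 rows that share each library and its depth. The sources used here do not give how strand was handled in counting. As the mature sequences are reverse complements of each other, the counts cannot say whether miR-3529-3p is a separate molecule. Its rise is therefore not counted as a second result beside that of miR-7-5p.

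The other arms gave few counts. miR-3529-5p, the 5p arm of the MIR3529 hairpin, had 0 counts in each control library and 1 count in each RARαS77A library. miR-7-2-3p, on the strand facing it, had the same counts in the same libraries. A count of 0 allows up to 3 counts per library, so neither arm was distinguishable between the groups at this depth, and both were below the filter of the test. The row of miR-3529-3p had 166886 counts in all control libraries and 253002 in all RARαS77A libraries, and that of miR-3529-5p 0 and 3. As the reads of miR-3529-3p may be those of miR-7-5p, no arm ratio of MIR3529 is read from these counts.

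The near-identity of both rows was set beside that of other complementary miRNAs. Among rows with a mean count of at least 10, 26 pairs had mature sequences with at least 18 contiguous complementary bases. In 12 of them the smaller count was within 5% of the larger one in every library, here called near-identical. Of the 17 pairs annotated on opposite strands of the same locus 11 were near-identical, and of the other 9 pairs 1 was (miR-548bc and miR-548f-5p). For miR-7-5p and miR-3529-3p the largest difference in any library was 2.67%, and at 97.9% their ratio of mean counts was the lowest of the 12. Pairs of like abundance were miR-103a-3p and miR-103b (98.4%), miR-24-3p and miR-3074-5p (99.7%) and miR-423-3p and miR-3184-5p (99.6%). Such a match was not seen for every complementary pair, since miR-3074-3p had 32.7% of the count of miR-24-1-5p, on the other arm of the same locus. Among all 124251 pairs of rows with a mean count of at least 10, 14 were near-identical, and 12 of these were the complementary pairs. The other 2 were miR-550a-3-5p with miR-550a-5p and miR-122-5p with miR-122b-3p. Only 1 of these 2, that of miR-550a, had a mature sequence for both rows. Whether the miR-122 pair is complementary was therefore not checked.

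The passenger arm of MIR7-1 did not rise with the guide. miR-7-1-3p had 260, 313 and 207 counts in the control libraries and 140, 157 and 131 in the RARαS77A libraries. After TMM scaling these were 20.9, 21.3 and 18.9 CPM in control and 17.8, 18.7 and 15.8 CPM in RARαS77A. The groups did not overlap, but the gap between them was small, with 18.7 CPM the highest RARαS77A value and 18.9 CPM the lowest control value. The mean was 20.3 ± 1.26 CPM in control and 17.4 ± 1.5 CPM in RARαS77A (SD, n = 3 each). The log2 fold change of -0.22 (SE 0.16, 95% interval -0.60 to 0.16) was not past the threshold in edgeR (adjusted p = 0.294). An exact two-sided permutation test gave p = 0.1. The call depended on the scaling, since with total counts alone the log2 fold change was -0.80 (edgeR, adjusted p = 0.00820), and the share of counts went from 0.00249% ± 0.000243 to 0.00143% ± 0.000111. Relative to the median of all miRNAs tested the value was -0.29 under either scaling, a match that is again fixed in advance. Over the 6 libraries the log2 CPM of miR-7-1-3p correlated with that of miR-7-5p at r = -0.76, again only a description.

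The ratio of guide to passenger needs no scaling between libraries, because both counts come from the same library. There were 238, 176 and 260 counts of miR-7-5p per count of miR-7-1-3p in control and 611, 586 and 614 in RARαS77A. The RARαS77A libraries lay close together and far above the control libraries, of which replicate 2 was the lowest. The mean was 225 ± 43.1 in control and 604 ± 15.05 in RARαS77A (SD, n = 3 each), and the means differed 2.69-fold. On the log2 scale the ratio went from 7.79 ± 0.29 to 9.23 ± 0.036, a difference of 1.44 (SE 0.18, 95% interval 1.04 to 1.84, limma over all arm pairs, adjusted p = 0.000134). The exact permutation test gave p = 0.1, its smallest value. Against control replicate 3 alone the difference was 1.22, a value without a test because the spread then comes from the RARαS77A libraries.

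**Figure D1:**
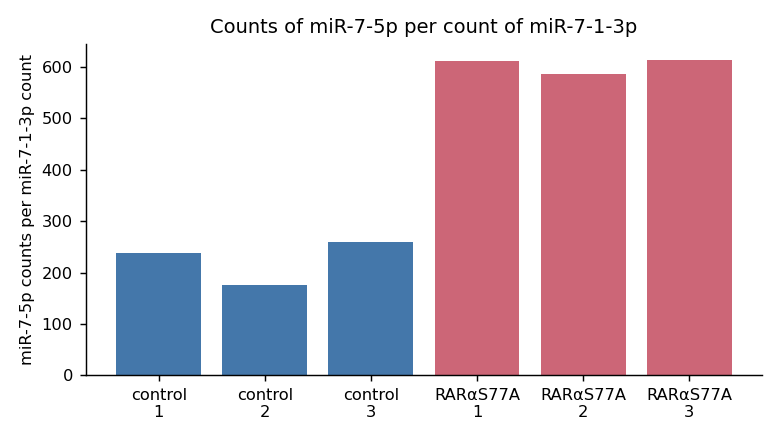
Counts of miR-7-5p per count of miR-7-1-3p in each library (bars from 0; blue control, red RARαS77A). Control libraries lie between 176 and 260 and RARαS77A libraries between 586 and 614.

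A shift of the arm ratio was common in these cells. Of 140 hairpins or arm pairs with a mean count of at least 10 for the less abundant arm, limma called the ratio of 5p to 3p higher in 31.4% (44) and lower in 22.9% (32), and the groups did not overlap in 62.1%. The median difference of all pairs was 0.17 on the log2 scale. The miR-7 pair was 19th from the top, with 18 pairs above it, and 90% of all pairs lay below 1.59. In 17 pairs, miR-7 among them, the 5p arm was called higher by edgeR and the 3p arm was not called in either direction.

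**Figure D2:**
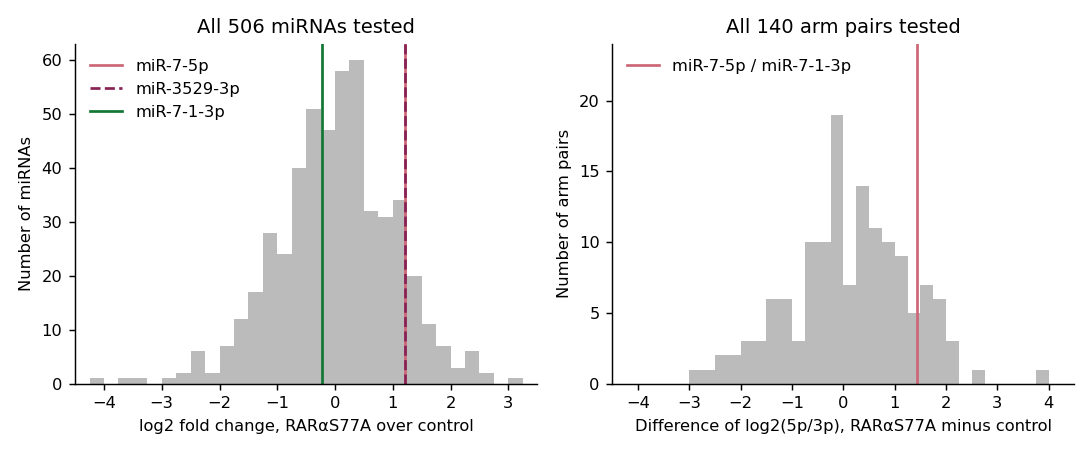
Left, number of miRNAs by log2 fold change of RARαS77A over control for all 506 miRNAs tested, with lines at miR-7-5p (1.21), miR-3529-3p (1.22) and miR-7-1-3p (-0.22). Right, number of arm pairs by the difference in log2(5p/3p) for all 140 pairs, with a line at the miR-7 pair (1.44); it lies in the upper part of the distribution but not at its end.

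The passenger arms were used to trace the precursors. Of the 1211 counts of miR-7-1-3p and miR-7-2-3p in the 6 libraries, 1208 (99.8%) belonged to MIR7-1. The other 3 belonged to MIR7-2 or, if strand was not kept, to MIR3529. In the control libraries miR-7-1-3p made up 260 of 260, 313 of 313 and 207 of 207 of these counts. The 0 counts of miR-7-2-3p, read as up to 3 counts, allow a share of up to 1.15%, 0.958% and 1.45%. In the RARαS77A libraries the share was 99.3% ± 0.0629 (SD, n = 3), with lower 95% Wilson bounds of 96.1%, 96.5% and 95.8%. The groups differed by 1 count per library (exact permutation test, p = 0.1), which is under the 3 counts that a 0 allows. Intervals and these limits cover counting error only. MIR7-1 was therefore the precursor with measurable passenger counts in both groups, and no rise of its passenger passed the test. Which precursor gave the added counts of miR-7-5p cannot be read from these rows, since the guide is the same in all 3 and MIR7-3 had no passenger row.

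The neighbour of MIR7-2 on chromosome 15 gave almost no counts either. The only other miRNA gene annotated within 10 kb of a MIR7 hairpin was MIR1179, 3628 bases before MIR7-2 on the same strand. miR-1179 had 2 counts in control replicate 1 and 0 counts in each of the other 5 libraries.

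The miRNA that acts on CDR1as was measured too. miR-671-5p had 39.1, 36.4 and 42.7 CPM in control and 47.6, 57.6 and 33.8 CPM in RARαS77A, so that the groups overlapped. Its log2 fold change was 0.23 (edgeR, adjusted p = 0.412), and that of its partner arm miR-671-3p was 0.45 (edgeR, adjusted p = 0.0758). Both values turned negative with total counts, at -0.34 (adjusted p = 0.225) and -0.13 (adjusted p = 0.601), so no direction is given for either arm. CDR1as itself is too long for these libraries and was not measured.

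The profiles most like that of miR-7-5p were sought among the 310 tested miRNAs whose mean count reached 50, by Pearson's r of log2 CPM over the 6 libraries. The arms of MIR7 and MIR3529 were left out of this search, so that miR-3529-3p, whose r is given above, is not among them. The top 5 were miR-96-5p (r = 0.993), miR-24-2-5p (0.993), miR-200b-3p (0.989), miR-192-5p (0.988) and miR-30d-5p (0.987). All 5 were called higher by edgeR with TMM, by smaller amounts than miR-7-5p. These calls follow from the choice, as the 5 were picked for likeness to a row whose groups do not overlap. Over all miRNAs tested, 23.3% were called higher. miR-96-5p rose from 309 ± 21.0 to 487 ± 38.9 CPM, a log2 fold change of 0.65, and the other log2 fold changes lay between 0.49 and 0.60. With total counts the 5 values lay between -0.08 and 0.08, whereas that of miR-7-5p was 0.64. The correlations share library and scaling, with 2 groups behind them, and are a description.

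Rows typical of cells in which miR-7 is abundant were counted beside it. Of 15 neuronal miRNA names listed, 12 had a row in the table, whereas miR-124-3p and miR-153-3p were absent from it. Among the 12 rows, 7 were tested, and 3 were called higher and none lower, against 23.3% of all miRNAs called higher. The median log2 fold change was 0.95 in this list and 0.06 over all miRNAs tested. The 3 were miR-128-3p (0.95), miR-218-5p (1.05) and miR-9-5p (1.02, named after its value was seen), and miR-138-5p stood at 0.06. The other 3 tested were not past the threshold, with miR-129-5p at 1.17, miR-219a-2-3p at -0.56 and miR-9-3p, the other arm of miR-9, at -0.68. miR-128-3p, miR-218-5p and miR-138-5p are also common outside neurons. With total counts, miR-128-3p and miR-9-5p, at 0.37 and 0.43, were no longer past the threshold (edgeR, adjusted p = 0.217 and 0.0705), while miR-218-5p still was (0.48, adjusted p = 0.00851). The summed level of the 12 rows was 1214 to 1560 TMM-normalized CPM in control and 2208 to 2548 in RARαS77A, with no overlap. As CPM of total counts without TMM it was 1401 to 1938 and 1790 to 2084, and the groups overlapped. Most of the sum came from miR-128-3p and miR-138-5p, with means of 594 and 501 TMM-normalized CPM in control and 1150 and 521 in RARαS77A. The rows not tested were miR-124-5p, miR-129-1-3p, miR-129-2-3p, miR-137-3p and miR-219a-5p, with mean counts of 0.167 to 5.5.

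Of 5 pancreatic miRNAs 2 were tested and neither was called. Their sum, mostly miR-375-3p, was 3.85 to 60.8 TMM-normalized CPM in control, highest in replicate 2, and 7.62 to 7.95 in RARαS77A. None of the 8 stem cell miRNAs tested was called by edgeR, nor any of 2 muscle, 2 liver and 5 blood cell miRNAs. Over all miRNAs tested, edgeR called 23.3% higher and 21.1% lower. At an unadjusted p under 0.05, edgeR had 1 blood cell miRNA (miR-486-5p) and 0 in the other 4 of these lists. DESeq2 called 0 in all 5, and limma-voom called the 8 stem cell miRNAs, whose controls were split between replicate 3 and the others. Summed TMM-normalized levels were 5.51 to 82.4 CPM in control and 7.46 to 8.57 CPM in RARαS77A for muscle, 13.7 to 88.4 and 84.8 to 127 CPM for liver, and 27.7 to 35.0 and 28.5 to 40.3 CPM for blood cells. The groups overlapped in each of these lists on this scale. The 2 liver rows tested, miR-122-5p and miR-122b-3p, were the near-identical pair named above. The liver sum may therefore hold the same reads under both names. With all marker rows left out except those common outside neurons, the log2 fold change of miR-7-5p was 1.22 (edgeR). The part of other cells in the levels of miR-7 was not tested.

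**Figure D3:**
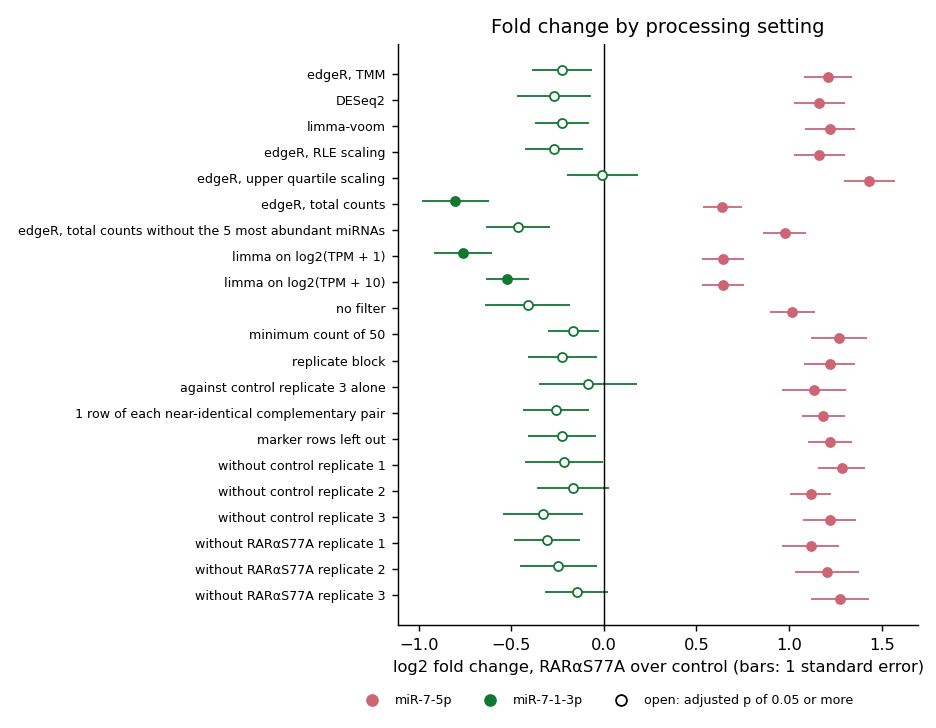
Log2 fold change of RARαS77A over control for miR-7-5p (red) and miR-7-1-3p (green) under each processing setting, with bars of 1 standard error; filled points have an adjusted p under 0.05. miR-7-5p lies between 0.64 and 1.43 and is filled throughout, while miR-7-1-3p lies between -0.80 and -0.01 and is filled in 3 settings; the setting against control replicate 3 alone rests on 1 control library.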

How the data were processed

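Small RNA was sequenced from 3 control and 3 RARαS77A samples of MDA-MB-231 with the NEBNext small RNA kit. The authors deposited 1 table of raw counts per miRNA with matching TPM values. Each deposited TPM value is its count over the library total on the usual scale (largest difference 4.74e-05), with no length term. Bowtie is named in the submitters' processing notes. Genome build, strand setting and treatment of multi-mapped reads: not given in the sources used here.

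Counts were tested with edgeR 4.0.16 (R 4.3.3; TMM, filterByExpr with a minimum count of 10, glmQLFit and glmQLFTest, adjusted p under 0.05 by Benjamini-Hochberg over 506 miRNAs). Arm ratios, log2((5p + 0.5)/(3p + 0.5)), were tested with limma 3.58.1 over 140 pairs. Alternatives used DESeq2 1.42.0, limma on voom or TPM values, other scalings and filters, a replicate block, and libraries or rows left out. The tests were checked on simulated data with the most abundant miRNAs held unchanged. This choice was made after limma on TPM had made many false calls without it. Even so, limma on TPM made more false calls than the other tests. In the data abundant miRNAs did change, and miR-21-5p had a mean of 393621 TMM-normalized CPM in control and 617011 in RARαS77A. The check therefore does not cover a change of the most abundant miRNAs. Depth was 9019266 to 11338580 counts per library, and intervals are 95% Wilson intervals (scipy 1.17.1). Of 1498 rows with human miRNA names, 1342 matched a RefSeq mature sequence, and 84 rows with other names entered the same filter but were not matched. A count of 0 was read as up to 3 counts.

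The miRNAs named are the arms of MIR7 and MIR3529, miRNAs within 10 kb, rows with a shared seed, miR-671, complementary pairs, the 5 profiles most like miR-7-5p, its neighbours in level and the marker lists (neuronal, pancreatic, stem cell, muscle, liver and blood cell). Members and lists were chosen with earlier results of these data known.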

Additional observations from a re-analysis of the deposited data

How the results depend on the processing

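miR-7-5p kept its direction and its call in all 19 alternatives with at least 2 control libraries (log2 fold change 0.64 to 1.43), miR-3529-3p in the 18 of these that keep its row (0.65 to 1.44) and the arm ratio in all 10 of its own (1.28 to 1.55). miR-7-1-3p kept its direction in 19 (-0.80 to -0.01) but passed the threshold in 3 settings without a composition factor: edgeR with total counts (-0.80), limma on log2(TPM + 1) (-0.76) and limma on log2(TPM + 10) (-0.52, adjusted p = 0.00565). In these 3 settings the calls over all miRNAs were 51, 55 and 59 higher and 213, 221 and 218 lower, against 118 and 107 with TMM; without a filter 162 were lower. DESeq2 called 109 higher and 111 lower. With 1 library left out, log2 fold changes lay between 1.12 and 1.28 (miR-7-5p), 1.12 and 1.29 (miR-3529-3p), -0.33 and -0.15 (miR-7-1-3p) and 1.28 and 1.55 (arm ratio). miR-671-3p passed the threshold in 5 of these 19 alternatives, DESeq2 and voom among them. Near-identical complementary pairs numbered 8 to 15 under other limits.

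Libraries of the same replicate number had correlations of deviations from the group mean of 0.0353, 0.103 and 0.0165. Libraries of different numbers were not compared, so whether the numbers pair the libraries was not settled. With a replicate block, miR-7-5p stood at 1.22 (edgeR, adjusted p = 0.00210), miR-3529-3p at 1.22, miR-7-1-3p at -0.23 and the arm ratio at 1.44, and no call changed. The arms miR-7-2-3p and miR-3529-5p have no fitted value, as 1 count in a library limits them. The counts of miR-7-1-3p, 131 to 313 a library, limit the arm ratio.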
